A study of Mus musculus with 10 samples.

Results

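The 42 genes described here encode the enzymes, transporters and regulated targets of hepatic fatty acid oxidation and ketone body metabolism. They were taken by name from a list drawn up by function, and all 42 were found among the 54532 genes of the deposited liver table. Earlier results of these data were known when the list was drawn up. The shares of members given below are therefore descriptions and not a test of the list. Each gene was put in a single list by a place or role of its product, also where a product may act in several. The lists comprised 19 genes of mitochondrial beta-oxidation, 2 of ketone body metabolism (Acat1 and Bdh1), 10 of peroxisomal oxidation, 5 of microsomal omega-oxidation (Cyp4a10, Cyp4a14, Cyp4a31, Cyp4a32 and Aldh3a2) and 6 of uptake, activation and fuel selection (Acsl1, Fabp1, Cd36, Acot1, Vnn1 and Pdk4). All 42 passed the filter on low values that left 13306 genes for testing.

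The data are bulk RNA sequencing of 10 livers, each from a separate mouse on a C57BL/6J background, with 5 labelled ASK1f/f and 5 labelled ASK1+hep. Both groups carried murine ASK1 cDNA in the ROSA26 locus behind a lox-stop-lox cassette, and ASK1+hep mice additionally carried Alb-Cre, which acts in hepatocytes through the albumin promoter, whereas ASK1f/f mice were their control littermates. The mice were 6 weeks old when a high fat diet (HFD) began, which lasted 7 weeks, and livers were taken after a fast of 5 h. The comparison asks how hepatocyte overexpression of ASK1, a stress-activated kinase, relates to the transcripts of these pathways on HFD. Values are FPKM, i.e., reads scaled for the length of the gene and a size of the library. That size was not the total of reads on genes. The total was 0.941 of it in ASK1f/f replicate 1, the lowest, and 1.12 of it in ASK1+hep replicate 3, the highest. Differences are on the log2(FPKM + 1) scale, ASK1+hep minus ASK1f/f, which understates differences of genes with low FPKM. Since these are values of whole liver, fewer cells of a type and less RNA per cell cannot be told apart.

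Map3k5, the gene of ASK1, was at 6.74, 6.88, 5.77, 4.71 and 19.8 FPKM in ASK1f/f replicates 1 to 5, whereas ASK1+hep replicates 1 to 5 had 16.4, 11.1, 7.68, 12.4 and 15.2 FPKM. In what follows, values are listed in this order of replicates. The library labelled ASK1f/f replicate 5 was thus the highest of the 10, against its label, and results that rest on it are given with and without it. A further library, ASK1+hep replicate 3, stood apart in all genes. Its median deviation from each gene's median over the livers was 0.30 on the log2 scale among the shortest quintile of genes and -0.11 among the longest quintile, and 10.9% of its reads were on mitochondrial chromosome genes against 4.19% to 6.74% in the other 9 libraries. Depth was similar, with 13367742 to 16163378 reads on genes per library. Hepatocyte markers summed to 29571 to 41095 FPKM in livers labelled ASK1f/f and 34703 to 44115 FPKM in the ASK1+hep livers. Of the 6 markers 1 was higher at an unadjusted p under 0.05 in limma, as were 3.05% of all genes tested. Of the 4 adipocyte markers, which summed to 618 to 1108 FPKM in ASK1f/f and 685 to 1029.6 FPKM in ASK1+hep livers, Car3, which hepatocytes also express, made up nearly all, whereas Lep was at 0 and Adipoq and Plin1 were at 0 to 0.0526 FPKM.

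Fatty acids enter hepatocytes through carriers such as CD36, are bound by FABP1 and are activated to acyl-CoA. Mitochondria take up long-chain acyl-CoA through the carnitine shuttle and shorten it step by step to acetyl-CoA, from which ketone bodies are made, while peroxisomes begin the breakdown of very long chains and of dicarboxylic acids. Those dicarboxylic acids come from omega-oxidation in the endoplasmic reticulum, in which CYP4A enzymes hydroxylate the far end of the chain and a fatty aldehyde dehydrogenase completes the step. The nuclear receptor PPARA, which is activated by fatty acids, is the classical transcriptional regulator of genes in each of these compartments.

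No member passed the adjusted threshold of 0.05, at which limma called 0.0% of the 13306 genes (0 genes). At an unadjusted p under 0.05, 6 of the 42 members had a higher mean in livers labelled ASK1+hep, i.e., 14.3% against 3.05% of all genes tested, and 0 members had a lower one against 2.72% of all genes. In total 768 genes reached this unadjusted limit with limma and 733 with limma-voom, which called 0 genes after adjustment as well, whereas limma-voom with quality weights called 1 gene. The 6 members were Aldh3a2, Cyp4a31, Vnn1, Cyp4a14, Crat and Acaa1b, i.e., 3 of 5 microsomal genes, 1 of 6 genes of uptake and fuel selection, 1 of 19 mitochondrial genes and 1 of 10 peroxisomal genes. The median log2 fold change was 0.07 over all members and -0.01 over all genes tested, with 28 members higher and 14 lower in mean. With each library scaled by all its reads these medians were -0.00 and -0.05, while that of the microsomal genes remained positive at 0.52.

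**Figure D1:**
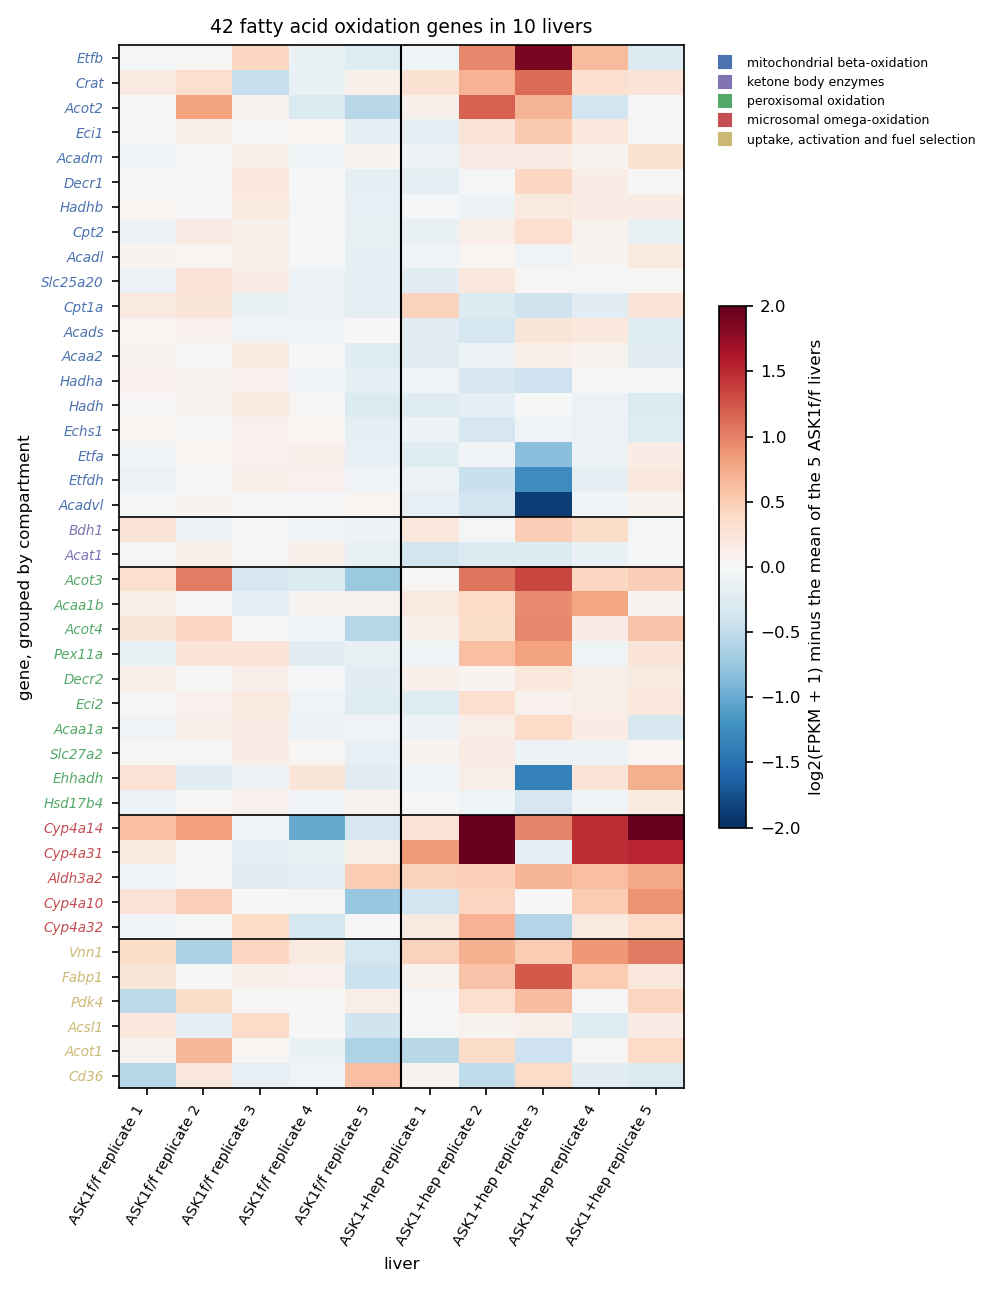
Each cell is the log2(FPKM + 1) of a gene (rows, names coloured by compartment) in a liver (columns) minus the mean of the 5 livers labelled ASK1f/f, and values beyond the ends of the colour scale are drawn in the end colours. The microsomal rows are mostly red in livers labelled ASK1+hep, the mitochondrial rows are mostly pale, and ASK1+hep replicate 3 differs from the rest of its row for Acadvl, at 23.5 FPKM, and Etfb, at 171 FPKM.

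The plot of all 42 genes by liver shows how unevenly single libraries contributed. The library labelled ASK1+hep replicate 3 was the highest of the 10 for 15 members and the lowest for 9, ASK1+hep replicate 5 was the highest for 11, and ASK1f/f replicate 5 was the lowest for 14. Without ASK1f/f replicate 5, the same 6 members remained at an unadjusted p under 0.05 with higher means (3.07% of all genes), and 3 members joined with lower means, namely Hadh, Echs1 and Acat1 (2.79% of all genes). Without ASK1+hep replicate 3, Acaa1b left and Cyp4a32 joined, so that 6 members were again higher (2.35% of all genes). Without both libraries 5 members were higher (2.72% of all genes) and 2 were lower, Hadh and Echs1 (2.86% of all genes). Leaving out ASK1+hep replicate 1 gave 10 higher members, with Acot3, Acot4, Etfb and Fabp1 in addition to the 6 (4.89% of all genes), and leaving out ASK1+hep replicate 5 gave 2 lower members, Acat1 and Etfdh (5.73% of all genes).

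The largest log2 fold changes of the set were those of the microsomal genes Cyp4a14, at 1.49, and Cyp4a31, at 1.14. Vnn1, which is not microsomal, followed at 0.72. All 5 microsomal genes had a higher mean in livers labelled ASK1+hep, with log2 fold changes of 0.17 to 1.49 and a median of 0.60. Of these genes 3 had an unadjusted p under 0.05 in limma. The Cyp4a genes encode fatty acid omega-hydroxylases and lie together on chromosome 4 of GRCm38, between 115486200 and 115621602.

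Cyp4a14 was at 124, 145, 76.5, 39.9 and 64.6 FPKM in livers labelled ASK1f/f and at 100.3, 368, 161, 229 and 485 FPKM in the ASK1+hep livers. Of the latter, 4 exceeded every liver labelled ASK1f/f, and ASK1+hep replicate 1 lay within their range. The means were 90.2 ± 43.5 and 269 ± 157 FPKM (SD, n = 5 each), a log2 fold change of 1.49 (SE 0.44, unadjusted p = 0.00568, adjusted p = 0.804 from limma). It amounted to 1.41 without ASK1f/f replicate 5 and to 1.62 without ASK1+hep replicate 3.

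Cyp4a31 was the least abundant of the group. It was at 4.37, 3.62, 3.14, 3.25 and 4.09 FPKM in livers labelled ASK1f/f and at 7.39, 18.2, 3.10, 12.01 and 12.4 FPKM in the ASK1+hep livers. Here ASK1+hep replicate 3 was the lowest of the 10 livers, whereas the other 4 of its group exceeded all livers labelled ASK1f/f. The log2 fold change was 1.14 (SE 0.33, unadjusted p = 0.00512, adjusted p = 0.804 from limma). Without ASK1f/f replicate 5 it was 1.17 (SE 0.37, unadjusted p = 0.00890, adjusted p = 0.654). Without ASK1+hep replicate 3, the liver that went against the difference, it was 1.47 (unadjusted p = 1.53e-05, adjusted p = 0.204).

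Aldh3a2, the fatty aldehyde dehydrogenase that follows the CYP4A step, had the lowest p-value of the 42 genes. It was at 72.2, 75.5, 65.8, 67.0 and 109.7 FPKM in livers labelled ASK1f/f and at 106, 107, 124, 117 and 131 FPKM in the ASK1+hep livers. The library that overlapped the other group was ASK1f/f replicate 5, which also had the high Map3k5 value, and the other 4 livers labelled ASK1f/f stayed at or below 75.5 FPKM. The means were 78.0 ± 18.1 and 117 ± 10.7 FPKM (SD, n = 5 each), a log2 fold change of 0.60 (SE 0.15, unadjusted p = 0.00163, adjusted p = 0.712 from limma). Without ASK1+hep replicate 3 the log2 fold change was 0.58 (SE 0.15, unadjusted p = 0.00299, adjusted p = 0.792). Without ASK1f/f replicate 5, the liver that went against the difference, it was 0.73 (SE 0.11, unadjusted p = 5.82e-05, adjusted p = 0.166). The groups then did not overlap for 2 members, Aldh3a2 and Vnn1, as for 1.09% of all genes in this direction. With all livers they did not overlap for 1 member, Vnn1, as for 0.398% of all genes.

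Cyp4a10 and Cyp4a32 overlapped widely between the groups. Cyp4a10, the most abundant of the 4 Cyp4a genes in livers labelled ASK1f/f, was at 147, 173, 125, 125 and 72.4 FPKM there and at 95.1, 167, 124, 177 and 231 FPKM in livers labelled ASK1+hep (log2 fold change 0.29, SE 0.27, unadjusted p = 0.294 from limma). Cyp4a32 ranged from 13.9 to 24.1 FPKM and from 11.6 to 29.8 FPKM. These genes share sequence, and 30.5% of the 50-base windows of the Cyp4a10 transcript, 46.8% of Cyp4a32 and 21.8% of Cyp4a31 also occurred in another gene's transcript, against 0.245% of Cyp4a14 and 0 of Aldh3a2. How reads matching several of them were counted is not given in the sources used here, so the split of reads among Cyp4a10, Cyp4a31 and Cyp4a32 is uncertain.

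**Figure D2:**
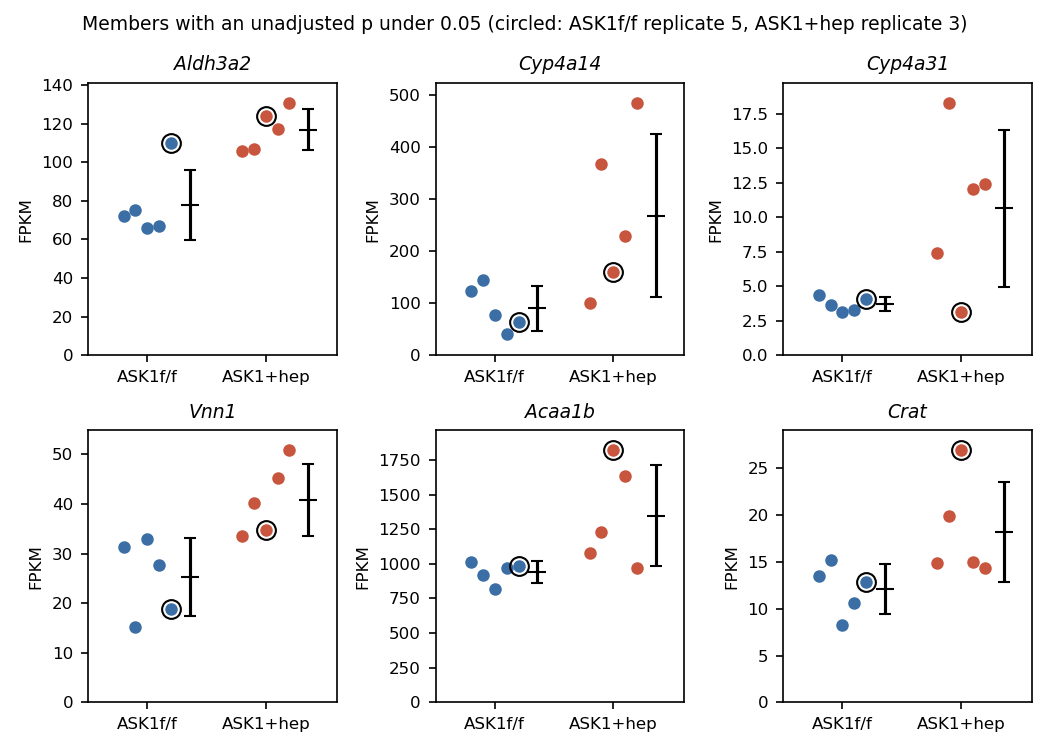
FPKM of the 6 members with an unadjusted p under 0.05 in each liver (points), with the mean and SD of each group (bar, n = 5), on axes starting at 0. Circles mark ASK1f/f replicate 5, which lies among the ASK1+hep points for Aldh3a2, and ASK1+hep replicate 3, which is the highest point for Acaa1b and Crat and the lowest of its group for Cyp4a31.

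The plot of these 6 genes is read beside the marker lists. The 5 pericentral markers are genes of the zone around the central vein where Cyp4a14 is mainly expressed. Of these 2, Glul and Oat, had an unadjusted p under 0.05 and a higher mean in livers labelled ASK1+hep. Cyp1a2 had a lower mean (log2 fold change -0.04). Glul was at 250 to 328 FPKM in livers labelled ASK1f/f and 348 to 485 FPKM in the ASK1+hep livers (unadjusted p = 0.00967, adjusted p = 0.812 from limma). Its groups did not overlap, as for 0.398% of all genes in this direction. The 5 markers summed to 3491 to 4814 FPKM in livers labelled ASK1f/f and 4365 to 4772 FPKM in the ASK1+hep livers. Cyp2e1 made up most of these sums (unadjusted p = 0.319 from limma). Of the 5 periportal markers 1 had a lower mean at that limit, with sums of 1387 to 1938 FPKM and 1387 to 2084 FPKM. Of the 5 erythroid markers 2 had a higher mean at that limit, with sums of 333 to 490.3 FPKM and 324 to 1053 FPKM, and of the lists for macrophages, endothelial cells, stellate cells, cholangiocytes, lymphocytes, neutrophils and adipocytes 0 markers did in limma. Of all genes tested, 3.05% had a higher mean and 2.72% a lower mean at that limit. The part of zonation or of other cells in the microsomal values was not tested.

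The genes of peroxisomal oxidation had a median log2 fold change of 0.12, with 8 of 10 higher and 2 lower in mean, and a range of -0.06 to 0.67. The sole member at an unadjusted p under 0.05 was Acaa1b, a thiolase of the last step of the cycle and the most abundant peroxisomal gene of the set. It was at 1016, 917, 819.5, 971 and 986 FPKM in livers labelled ASK1f/f and at 1077, 1232, 1819, 1631 and 973 FPKM in the ASK1+hep livers. Of the latter, 4 exceeded all livers labelled ASK1f/f and replicate 5 did not. Its log2 fold change was 0.48 (SE 0.19, unadjusted p = 0.0304, adjusted p = 0.812 from limma), and 0.36 without ASK1+hep replicate 3, its highest liver (unadjusted p = 0.0537). Acaa1b shares 35.5% of its windows with its paralog Acaa1a, which was at 93.0 ± 7.90 and 97.4 ± 17.9 FPKM (SD, n = 5 each), and it overlaps exons of Dlec1 on the opposite strand. Whether the counting used strand is not given in the sources used here.

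Ehhadh, the bifunctional enzyme of the peroxisomal cycle and a classical PPARA target, had a mean difference near 0 with wide spread. It was at 118, 82.4, 89.1, 114 and 83.2 FPKM in livers labelled ASK1f/f and at 92.4, 106, 36.9, 115 and 159 FPKM in the ASK1+hep livers. The extremes of the 10 livers were thus both labelled ASK1+hep, replicates 3 and 5. The log2 fold change was -0.06 (SE 0.31, unadjusted p = 0.848 from limma), and 0.26 without ASK1+hep replicate 3 (SE 0.17, unadjusted p = 0.157). The remaining peroxisomal members had unadjusted p-values above the limit, among them the acyl-CoA thioesterases Acot3 and Acot4, with log2 fold changes of 0.67 (SE 0.33) and 0.43 (SE 0.20).

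The 19 genes of mitochondrial beta-oxidation had a median log2 fold change of 0.01, with 10 higher and 9 lower in mean, and ranged from -0.48 to 0.62. Cpt1a, the rate-controlling carnitine palmitoyltransferase, was at 129, 134, 104, 104 and 100.4 FPKM in livers labelled ASK1f/f and at 156, 93.4, 85.9, 97.8 and 135 FPKM in the ASK1+hep livers. Replicates 1 and 5 of the latter lay above all livers labelled ASK1f/f and the other 3 lay below them. The log2 fold change was -0.04 (SE 0.18, unadjusted p = 0.843 from limma).

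Crat, which transfers short acyl groups between CoA and carnitine, was the mitochondrial gene with the lowest p-value. It was at 13.5, 15.2, 8.31, 10.7 and 12.8 FPKM in livers labelled ASK1f/f and at 14.9, 19.9, 26.9, 15.1 and 14.4 FPKM in the ASK1+hep livers. The groups overlapped through ASK1f/f replicate 2, and ASK1+hep replicates 2 and 3 exceeded it. This gave a log2 fold change of 0.54 (SE 0.19, unadjusted p = 0.0166, adjusted p = 0.812 from limma), and 0.40 without ASK1+hep replicate 3 (SE 0.16, unadjusted p = 0.0328). Crat overlaps exons of Dolpp1 and Gm16323 on the opposite strand.

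Acadm, the medium-chain acyl-CoA dehydrogenase, was at 86.6, 89.9, 99.5, 86.2 and 94.4 FPKM in livers labelled ASK1f/f and at 85.0, 102, 101, 95.0 and 113 FPKM in the ASK1+hep livers (log2 fold change 0.11, SE 0.11, unadjusted p = 0.307 from limma). Hadha, the alpha subunit of the trifunctional protein, was at 48.4, 47.9, 48.5, 43.8 and 40.1 FPKM and at 43.5, 36.4, 34.0, 45.7 and 44.9 FPKM (log2 fold change -0.16, SE 0.11, unadjusted p = 0.180 from limma). Acaa2, the mitochondrial thiolase and the most abundant mitochondrial gene of the set, was at 751, 742, 823, 721 and 613 FPKM and at 619.8, 678, 778, 760.3 and 621 FPKM (log2 fold change -0.08, SE 0.14, unadjusted p = 0.582 from limma). For each of these 3 genes the groups overlapped. Acot2, a mitochondrial thioesterase of low abundance, was at 3.05 ± 1.58 and 4.14 ± 2.30 FPKM (SD, n = 5 each), and 27.7% of its windows occurred in other Acot transcripts.

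Several mitochondrial values rested on ASK1+hep replicate 3. The 3 members named in this paragraph were chosen after their values were seen. Acadvl, the very long-chain acyl-CoA dehydrogenase, was at 87.0 to 92.1 FPKM in livers labelled ASK1f/f and at 79.7, 67.8, 23.5, 85.2 and 93.6 FPKM in the ASK1+hep livers. The difference on the log2 scale was -0.48 (SE 0.31) with that library and -0.13 (SE 0.10) without it. Etfdh, which passes electrons from beta-oxidation to the respiratory chain, was at 30.4 to 35.4 FPKM in livers labelled ASK1f/f and 13.2 FPKM in ASK1+hep replicate 3, and its log2 fold change went from -0.35 to -0.13 without the latter. Etfb, a subunit of the electron carrier upstream of it, was at 38.3 to 61.3 FPKM in livers labelled ASK1f/f and at 43.3, 90.6, 171, 71.6 and 37.7 FPKM in the ASK1+hep livers, with a log2 fold change of 0.62 (SE 0.34) that was 0.31 (SE 0.24) without replicate 3. Of the windows of Etfb 67.3% also occurred in the transcript of Gm45233, which overlaps it on the same strand.

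Conversely, the 3 genes that joined the lower side without ASK1f/f replicate 5 had small differences. Hadh, a short-chain hydroxyacyl-CoA dehydrogenase, was at 67.3, 69.2, 76.1, 67.4 and 53.9 FPKM in livers labelled ASK1f/f and at 56.1, 57.7, 65.9, 61.4 and 54.4 FPKM in the ASK1+hep livers. Without ASK1f/f replicate 5, its lowest liver, every other liver labelled ASK1f/f lay above the highest of the other group, which was so for 2 members, Hadh and Echs1, and for 1.32% of all genes. Its log2 fold change was then -0.24 (SE 0.11, unadjusted p = 0.0437, adjusted p = 0.823 from limma), against -0.17 with all livers. For Echs1, the enoyl-CoA hydratase, it was -0.22 (SE 0.10) against -0.17. Hadh and Echs1 were named after their values were seen.

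The ketone body enzymes of the set went in opposite directions, with neither past the unadjusted limit. Acat1, which joins acetyl-CoA units at the start of ketogenesis, was at 120.0, 132, 121, 132 and 111 FPKM in livers labelled ASK1f/f and at 95.4, 101, 102, 112 and 120.1 FPKM in the ASK1+hep livers. Of the latter 3 lay below every liver labelled ASK1f/f (log2 fold change -0.21, SE 0.11, unadjusted p = 0.0673, adjusted p = 0.812 from limma). Bdh1, which interconverts acetoacetate and beta-hydroxybutyrate, was at 92.8, 71.8, 77.3, 73.6 and 72.3 FPKM and at 90.9, 75.2, 109, 99.7 and 75.5 FPKM (log2 fold change 0.20, SE 0.13, unadjusted p = 0.153 from limma). Its groups overlapped.

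**Figure D3:**
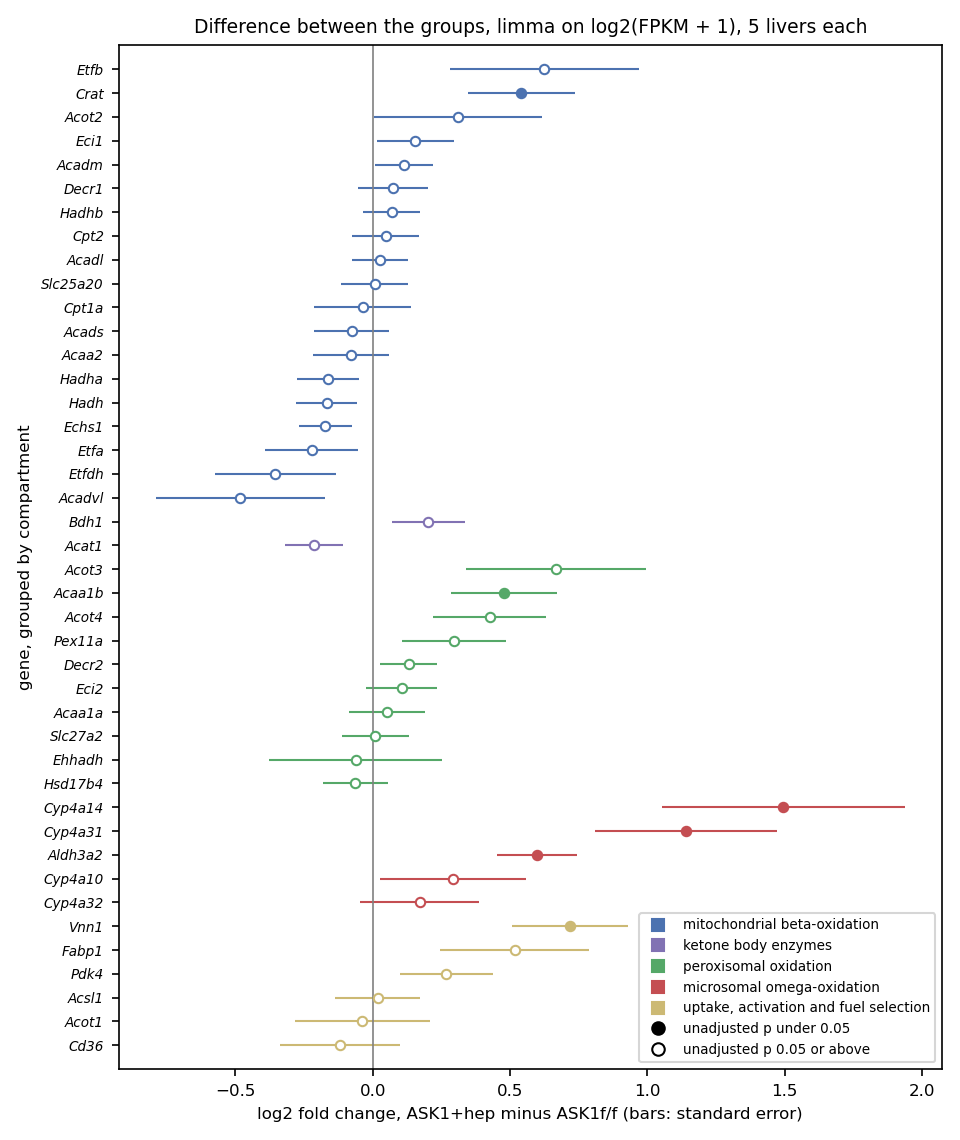
Points are the log2 fold changes of the 42 genes, ASK1+hep minus ASK1f/f, with bars of 1 standard error, coloured by compartment and filled where the unadjusted p was under 0.05. The microsomal genes all lie right of 0, from 0.17 to 1.49, whereas the mitochondrial genes lie on both sides, from -0.48 to 0.62.

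Among the genes of uptake, activation and fuel selection, 4 of 6 were higher in mean and the median log2 fold change was 0.14. Vnn1, which encodes the pantetheinase vanin-1 and is a known PPARA target, was the member whose groups did not overlap. It was at 31.4, 15.2, 32.9, 27.8 and 18.8 FPKM in livers labelled ASK1f/f and at 33.5, 40.2, 34.8, 45.2 and 50.8 FPKM in the ASK1+hep livers. The gap between the groups, from 32.9 to 33.5 FPKM, was small beside the spread within either. For this gene the log2 fold change was 0.72 (SE 0.21, unadjusted p = 0.00548, adjusted p = 0.804 from limma). It was 0.63 without ASK1f/f replicate 5 (SE 0.22, unadjusted p = 0.0160, adjusted p = 0.731). Without ASK1+hep replicate 3 it was 0.77 (SE 0.22, unadjusted p = 0.00545, adjusted p = 0.792). The exact two-sided permutation test over the 252 assignments of the livers gave p = 0.00794 for Vnn1, unadjusted. This is the smallest value the test can give, and groups that do not overlap always give it. The exact permutation test gave p = 0.0238 for Aldh3a2 and Acaa1b. For Cyp4a14 and Crat the exact permutation test gave p = 0.0317, and for Cyp4a31 the exact permutation test gave p = 0.0476.

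Fabp1, the liver fatty acid binding protein and the most abundant of the 42 genes, was at 8487, 7155, 7628, 7595 and 5274 FPKM in livers labelled ASK1f/f and at 7509.8, 10610.4, 16687, 10182 and 8239 FPKM in the ASK1+hep livers. The extremes of the 10 livers were ASK1f/f replicate 5 and ASK1+hep replicate 3. The log2 fold change was 0.52 (SE 0.27, unadjusted p = 0.0812, adjusted p = 0.812 from limma) with all livers and 0.23 (SE 0.22) without these libraries. At 553 bases Fabp1 was the shortest of the 42 genes in the table.

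Cd36, the fatty acid translocase, was at 7.79, 14.1, 10.7, 11.2 and 18.7 FPKM in livers labelled ASK1f/f and at 12.5, 8.12, 15.9, 10.1 and 9.58 FPKM in the ASK1+hep livers (log2 fold change -0.12, SE 0.22, unadjusted p = 0.595 from limma). Its highest liver was ASK1f/f replicate 5, and its range in livers labelled ASK1+hep lay inside that of the other group. Acot1, a cytosolic thioesterase, was at 10.1 ± 3.61 and 9.76 ± 3.13 FPKM (SD, n = 5 each, log2 fold change -0.04). Pdk4, the kinase that restrains pyruvate oxidation in favour of fatty acids, was the least abundant of the 42 genes, with 0.290, 1.39, 0.876, 0.842 and 1.018 FPKM and 0.818, 1.34, 1.84, 0.810 and 1.49 FPKM. These low levels of Pdk4 rested on 17 to 89 reads per liver (log2 fold change 0.27, SE 0.17, unadjusted p = 0.142 from limma).

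To compare the compartments within each liver, the median of the members' log2 differences from the ASK1f/f mean was taken. For the microsomal genes it was 0.20, 0.00, -0.09, -0.19 and 0.00 in livers labelled ASK1f/f and 0.30, 0.70, 0.00, 0.60 and 0.89 in those labelled ASK1+hep. In 4 of 5 livers labelled ASK1+hep it lay above all livers of the other group, with replicate 3 as the exception. For the peroxisomal genes it was 0.07, 0.05, 0.10, -0.06 and -0.19 and then -0.01, 0.25, 0.30, 0.14 and 0.21, so that again 4 of 5 exceeded the other group, here with replicate 1 as the exception. For the mitochondrial genes it was 0.02, 0.05, 0.10, -0.03 and -0.18 and then -0.12, -0.06, 0.10, 0.05 and -0.00, within which the groups lay over each other.

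**Figure D4:**
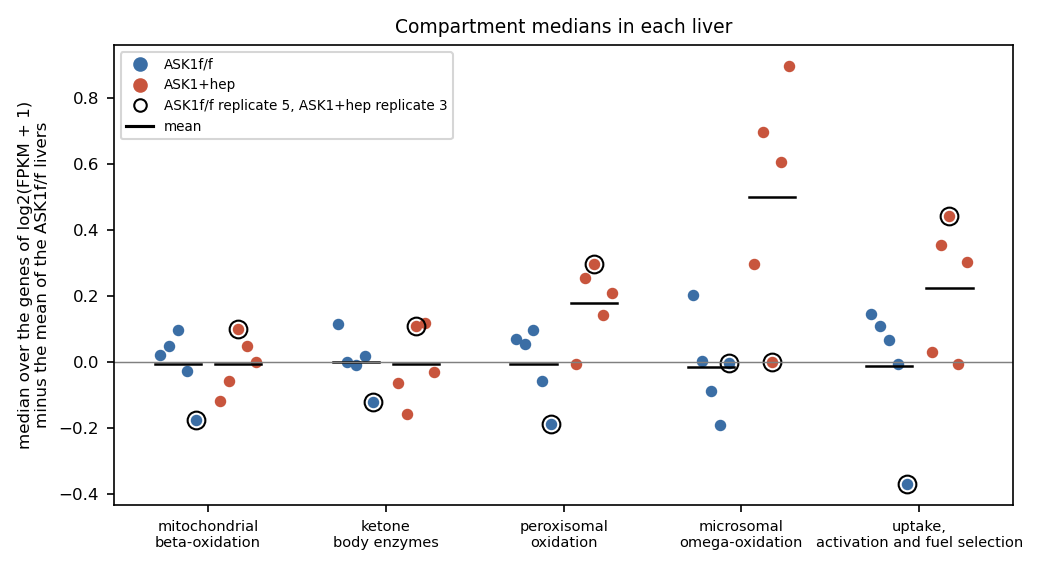
Points are the medians over the genes of a compartment, in each liver, of log2(FPKM + 1) minus the ASK1f/f mean, with lines at the group means. Circles mark ASK1f/f replicate 5, which is the lowest liver for the mitochondrial genes, the peroxisomal genes and the genes of uptake, activation and fuel selection, and ASK1+hep replicate 3, which is near 0 for the microsomal genes and at 0.30 for the peroxisomal genes.

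The plot of compartment medians shows the distance of ASK1f/f replicate 5 from its group. Without it the median log2 fold change over members was -0.04 for the mitochondrial genes, 0.06 for the peroxisomal genes and 0.73 for the microsomal genes, against 0.01, 0.12 and 0.60 with all livers. Differences between compartments were not tested. Livers labelled ASK1+hep also varied more, with a larger SD on the log2 scale than in livers labelled ASK1f/f for 28 of 42 members (66.7%), but this was so for 75.0% of all genes tested. Without ASK1+hep replicate 3 it was 23 members (54.8%) against 66.0% of all genes.

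PPARA binds with its partner RXR to direct repeats of the half-site AGGTCA spaced by 1 base (DR1). RefSeq windows of 300 bases (GRCm38.p6, 250 before to 50 after a start site) were found for 33 of the 42 members by symbol, and both strands were searched for a DR1 with at most 2 mismatches in the 12 fixed bases, which includes overlapping matches to other nuclear receptor repeats. Such a match was present for 6 members (18.2%) against 1190 of 27025 genes (4.40%). The sites are shown because they are the stretches of these promoters most like the element, with capitals for letters that match it, on the strand of the repeat:
Fabp1: AGGcCAtAGGTCA
Cd36: AaGTCAgAGGcCA
Acot4: cGGcCAaAGGTCA
Etfa: AGGgCAaAGGTaA
Echs1: AGGTCAcgGGTCc
Slc25a20: AGGTgAaAGGTCg
The Fabp1 site, chr6:71199812-71199824, had 1 mismatch and began 67 bases before the start site, whereas the others had 2. Those of Cd36, Acot4, Etfa and Echs1 began 63, 13, 77 and 83 bases before the start site, and that of Slc25a20, the carnitine-acylcarnitine carrier, 6 bases after it. These start sites are those of RefSeq. For Fabp1, Cd36, Echs1 and Slc25a20 they are not the gene starts of the deposited table. The Cd36 site, chr5:17835947-17835959, lies inside the deposited gene, which begins at 17888801 on the minus strand. Of the 6 genes with a site, 0 had an unadjusted p under 0.05 in limma, against 3.05% (higher) and 2.72% (lower) of all genes tested. With so few genes this count cannot show whether sites and differences go together. No entry was found for Cyp4a10, Cyp4a14, Cyp4a31, Vnn1, Crat, Acaa2, Acat1, Decr1 and Hsd17b4. Among these, Cyp4a14, Cyp4a31, Vnn1 and Crat were under that limit and could not be searched. A match is a description of the letters and does not show binding.

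The stretch of chr6:71199629-71199826 (plus strand) before the Fabp1 gene is given for the best match, in capitals as read on the gene's strand, and chr9:119157094-119157343 (minus strand) before Acaa1b for the member with a window, a p under the unadjusted limit and a gene start at the window's start site. The Fabp1 stretch is cut where the gene of the deposited table begins, at 71199827. That position lies before the RefSeq start site from which the 67 bases above are counted. No DR1 within 2 mismatches was in the Acaa1b window.
Fabp1: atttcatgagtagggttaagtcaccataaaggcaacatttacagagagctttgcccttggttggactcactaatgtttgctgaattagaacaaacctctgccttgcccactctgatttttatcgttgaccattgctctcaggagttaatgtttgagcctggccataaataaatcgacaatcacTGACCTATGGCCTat
Acaa1b: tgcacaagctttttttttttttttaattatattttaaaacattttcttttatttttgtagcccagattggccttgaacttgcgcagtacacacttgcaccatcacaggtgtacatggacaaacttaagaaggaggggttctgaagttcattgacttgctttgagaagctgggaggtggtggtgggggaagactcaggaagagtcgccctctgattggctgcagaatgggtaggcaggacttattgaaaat

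Further genes of these pathways were taken from a list of 79, of which 77 passed the filter and 0 passed the adjusted threshold. At an unadjusted p under 0.05 in limma, 2 had a higher mean and 3 a lower one. Of all genes tested 3.05% were higher and 2.72% lower at this limit, and these shares also stand beside the counts of the lists below. Their median log2 fold change was -0.02. Of 22 further mitochondrial and ketone body genes 3 were lower at the unadjusted limit and 0 higher. They were Acad10, an acyl-CoA dehydrogenase family member, and Pcca and Pccb, the subunits of propionyl-CoA carboxylase, which handles the end product of odd-chain oxidation.

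Pccb was at 60.4, 74.5, 71.3, 72.03 and 60.7 FPKM in livers labelled ASK1f/f and at 54.7, 43.5, 48.5, 60.5 and 54.8 FPKM in the ASK1+hep livers (log2 fold change -0.37, SE 0.12, unadjusted p = 0.00878, adjusted p = 0.812 from limma). Pcca was at 15.0 ± 1.35 and 12.1 ± 0.788 FPKM (SD, n = 5 each), a log2 fold change of -0.28 (SE 0.09). For both subunits 4 of 5 livers labelled ASK1+hep lay below all livers labelled ASK1f/f. Acad10 was at 6.96 ± 0.533 and 5.41 ± 0.442 FPKM (SD, n = 5 each, log2 fold change -0.31, SE 0.09, unadjusted p = 0.00556 from limma), and its groups did not overlap, as for 0.466% of all genes in this direction.

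Of the 12 further regulators 1 was higher at the unadjusted limit, namely Pparg, at 2.97 ± 0.630 and 4.70 ± 1.58 FPKM (SD, n = 5 each, log2 fold change 0.50, SE 0.17, unadjusted p = 0.0151, adjusted p = 0.812 from limma). Its highest liver, at 7.42 FPKM, was ASK1+hep replicate 3. Ppara itself was at 21.9, 23.4, 24.9, 26.0 and 26.9 FPKM in livers labelled ASK1f/f and at 33.6, 15.9, 11.2, 15.6 and 29.0 FPKM in the ASK1+hep livers. Livers labelled ASK1+hep thus lay on both sides of the narrow range of the other group (log2 fold change -0.32, SE 0.25, unadjusted p = 0.222 from limma). Among 23 further peroxisomal genes 1 was higher at the unadjusted limit, Abcd2, a peroxisomal fatty acid transporter, at 1.57 ± 0.826 and 2.58 ± 0.804 FPKM (SD, n = 5 each). Of 20 further genes of microsomal oxidation, uptake and activation that passed the filter, 0 reached the limit in limma.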

How the data were processed

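Poly-A RNA of 10 livers was sequenced. The authors removed adapters and low-quality reads (fastp per the labels' processing notes), mapped reads with Hisat2, counted them per gene with FeatureCounts and deposited FPKM per gene. The genome build, the annotation release and the use of strand in counting are not given in the sources used here. Of the 42 members 38 had the same coordinates in GENCODE M21 (GRCm38). FPKM times gene length gave whole reads for 100% of values (tolerance 0.01 reads), from which depth, limma-voom values and the filter were taken (10 or more reads in 5 or more livers after scaling libraries to their median total).

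The deposited values are FPKM and not counts, so a log-scale test was used as the main one, and the authors' DESeq2 test was not run, also not on the recovered reads. Groups were compared with limma 3.58.1 (R 4.3.3) on log2(FPKM + 1), without covariates and with the prior variance following the mean, and p-values were adjusted over 13306 genes by Benjamini-Hochberg. For single genes, exact permutation tests (two-sided) were run in addition. The test was checked on simulated data. Promoters were RefSeq windows (GRCm38.p6), searched with Python 3.11.15, and figures were drawn with matplotlib 3.10.9. Shared sequence is the share of 50-base windows of a gene's longest coding transcript found in transcripts of other genes.

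The members and lists were chosen with earlier results of these data known. Named were all members with an unadjusted p under 0.05, per compartment the most abundant member and that with the lowest p, 15 members fixed by role, and further pathway genes with an unadjusted p under 0.05. Genes outside this rule are marked, or are paralogs of named members or genes with a promoter match. Groups and replicate numbers came from the labels, each library being 1 mouse, and p-values measure the spread between these mice. Numbers did not meet the criterion used for pairing, a correlation above 0.1 in every pair of same-numbered livers, and the main fit has no pairs. Correlations averaged 0.11 for same-numbered and -0.03 for different-numbered livers, so the criterion does not show that the mice were unpaired. In both groups the animal tag of replicate 1 began with SN and the other tags with CC. No 2 libraries agreed within sampling noise (lowest chi-square per degree of freedom 19.2). Protein sequences were not analysed here. Some further pathway genes are not reported here by name.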

Additional observations from a re-analysis of the deposited data

Results flagged for a closer look

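The values of the 42 members, Map3k5 and 6 further pathway genes were examined in both groups, i.e., 98 groups of 5 livers, for a highest or lowest liver whose gap to the next exceeded 0.71 of the group's range. Chance exceeds this limit in about 1 of 20 groups, and 5 of 98 did. In the library labelled ASK1f/f replicate 5, Map3k5 was at 19.8 FPKM (gap 0.856 of the range), Aldh3a2 at 109.7 FPKM (0.779) and Echs1 at 25.7 FPKM (0.758). Map3k5 lay above every liver labelled ASK1+hep, Aldh3a2 was the highest of its group and within the ASK1+hep range, and Echs1 was the lowest of its group and within the ASK1+hep range. Bdh1 was at 92.8 FPKM in ASK1f/f replicate 1 (0.738). Pparg was at 7.42 FPKM in ASK1+hep replicate 3 (0.721).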

How the results depend on the processing

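Alternatives were limma-voom, also with quality weights, a pseudocount of 0.1, no filter, a filter of 10 reads in all livers, replicate number as a block, tag prefix as a covariate, scaling by all reads, leaving out each liver, and leaving out 9 genes with paralogs in the set. These were Acot1, Acot2, Acot3, Acot4, Acaa1a, Acaa1b, Cyp4a10, Cyp4a31 and Cyp4a32, with 4.87% to 46.8% of windows shared. Etfb (67.3%) and Hadhb (62.4%), which share more with other transcripts, were kept. Leaving out both libraries that stood apart and a spline correction for gene length (5 degrees of freedom) were chosen after seeing the data. No member passed the adjusted threshold under any of the 21 settings by limma or limma-voom, and 15 of 19 named members kept their direction in all of theirs. All genes called after adjustment were 1 with quality weights, 3 without both libraries and 0 to 1 when leaving out 1 liver. Genes at an unadjusted p under 0.05 were 1222 with no filter and 557 to 1724 when leaving out 1 liver, the most without ASK1+hep replicate 5.

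Members at that limit with a higher mean were 5 to 10 when leaving out 1 liver and 4 of 33 without the 9 genes with paralogs (3.05% of all genes in the main fit). Those with a lower mean were 1 with no filter, 1 with quality weights, 3 with scaling by all reads, 2 without both libraries, and 0 to 3 when leaving out 1 liver. No compartment median moved by more than 1 SD of its liver medians in the settings for which it was computed. Compartment medians were not computed without the genes with paralogs, among them Cyp4a10, Cyp4a31 and Cyp4a32 of the microsomal list. The replicate block gave 10 members with a higher mean at the unadjusted limit, against 6 without it. Shares of all genes by direction are not given here for the block, no filter, quality weights or scaling by all reads. The member counts of these settings therefore cannot be read as particular to the members. No label says that a number marks a shared litter or batch, although the animal tags of same-numbered mice were consecutive in 4 of 5 pairs, and correlations of same-numbered livers were 0.02 to 0.17, with 6 of 10 livers correlating best with their own number.

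Directions reversed for 4 members, with log2 fold changes close to 0. When leaving out 1 liver, Cpt1a was between -0.16 and 0.055, Ehhadh between -0.26 and 0.26, Acot1 between -0.19 and 0.13 and Cd36 between -0.26 and 0.030. Without both libraries Cpt1a was at 0.011 and Ehhadh at 0.21, and with quality weights Ehhadh was at 0.037. The cause was not tested. Depth limits Pdk4, Acot3 and Acot2, which had as few as 17, 14 and 55 reads in a liver.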
